A study of Mus musculus with 9 samples.

Results

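The miR-297, miR-466, miR-467 and miR-669 families of the mouse were examined in milk fat. Members were taken by name, as every row of the known-miRNA count table whose mature miRNA carried 1 of these 4 family numbers, and this gave 80 of the 1915 mature names in the table. The names comprised 6 of miR-297, 31 of miR-466, 13 of miR-467 and 30 of miR-669. Milk was taken on lactation day 10 from first-litter female ICR (CD1) dams, 5 on a control diet that drew 10% of its calories from fat and 4 on a high-fat diet that drew 60%. All dams started their diet at 4 weeks of age, ate it for 4 weeks before mating and stayed on it through pregnancy and lactation. Both diets held sucrose at 7% of energy, and they supplied 3.85 and 5.24 kcal per gram. No transgene or mutation is named for either group. Each library came from the washed milk fat of 1 dam, and dams of a diet lived in pairs until mating, in cages that the labels do not identify.

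MicroRNAs are short RNAs cut from hairpin precursors, and either side of the hairpin, the 5p or the 3p arm, can yield a mature miRNA that pairs with messenger RNAs through its seed near the 5′ end. Most members come from a long tandem array of hairpins in an intron of Sfmbt2, which encodes a Polycomb-group protein and is an imprinted gene expressed from the paternal copy in the mouse placenta. The array is rodent-specific, is rich in simple alternating repeats, and has been studied mainly in placenta and embryonic stem cells. In milk, miRNAs are carried in the fat globules, which the secretory epithelium of the mammary gland buds off together with some of its cytoplasm.

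Most, but not all, of the hairpins lay in Sfmbt2. Of the 82 precursors listed for the members, 70 lay in a single intron of Sfmbt2 on GRCm38 (GENCODE), on the gene's own strand, between chr2:10466663-10518279. This stretch of 51617 bp filled most of the 62472 bp intron (chr2:10461473-10523944), which is numbered intron 10 in 1 annotated Sfmbt2 transcript and intron 11 in another. The 70 hairpins were 5 of mir-297, 22 of mir-466, 14 of mir-467 and 29 of mir-669. A mir-467 hairpin followed by a mir-466 and then a mir-669 hairpin occurred 11 times, and the 10 mir-467a hairpins started a median of 2462 bp apart. Another 10 precursors lay elsewhere. They include mir-466i in an intron of Cdk13 on the opposite strand (chr13:17747473-17747593), mir-466q in an intron of Tnik on the same strand (chr3:28419943-28420018) and mir-297a-1 between genes (chr7:10958437-10958512). The remaining 2, mir-466a and mir-466c-3, were not placed. Of the 80 names, 64 traced only to the Sfmbt2 intron, 9 only to other loci, 3 to both and 2 only to precursors without a position. The other two names traced to the Sfmbt2 intron and to an unplaced precursor.

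Mature sequences in the RefSeq table (GRCm38.p6) matched 8 of the 80 names, all from loci outside the Sfmbt2 intron. The 4 of these that were detected, and 1 that was not (miR-466k), are shown because they display the 2 kinds of alternating repeat met in these families. The seed, bases 2 to 8 from the 5′ end, is in capitals.
miR-466i-3p: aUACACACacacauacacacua
miR-466q: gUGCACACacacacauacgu
miR-467f: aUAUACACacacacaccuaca
miR-466j: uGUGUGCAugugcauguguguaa
miR-466k: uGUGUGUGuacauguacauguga
The mature forms lie at chr13:17747552-17747573 (+) for miR-466i-3p, chr3:28419988-28420007 (+) for miR-466q, chr11:69635419-69635439 (-) for miR-467f, chr10:60960802-60960824 (+) for miR-466j and chr3:85467396-85467418 (+) for miR-466k.

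An unbroken run of 8 or more alternating C and A bases was present in 4 of the 8 members with a sequence, and in 4 of all 1623 names with one (0.246%), so every such name was a member. The longest C and A runs were 12 bases in miR-466q and in miR-467f, 11 in miR-466i-3p and 9 in miR-467g. An equally long run of alternating U and G was present in 2 of the 8, miR-466k and miR-669n, against 9 of 1623 names (0.555%). The 8 seeds all differed from each other, so no seed group held more than 1 of these 8. Among the 1623 names with a sequence, only the seed of miR-467h was shared with another name, miR-668-5p. Whether the 8 share a seed with members that lack a sequence here was not examined. None of the 8 passed the filter on low counts that is described next, so seeds could not be set beside the tested values.

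Detection was broad and shallow. At least 1 read was counted for 55 of the 80 names (68.8%), against 828 of all 1915 names (43.2%). By family, 5 miR-297, 23 miR-466, 10 miR-467 and 17 miR-669 names were detected, and 25 names had no count in any of the 9 libraries. Many names could not be told apart. In 8 cases 2 or more names had the same counts in all 9 libraries, 23 names in all, and the largest such set held 5 names. Each set was entered once in all sums, which left 40 distinct count profiles, called sets here. No set with 10 or more counts shared its profile with a name outside the 4 families.

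The cluster was a very small part of the milk-fat miRNA. Over the 9 libraries, whose totals ran from 837817 to 3897109 counts, the 40 sets together gave 1641 counts. The miR-467 family gave 693 of these, miR-669 gave 469, miR-466 gave 406 and miR-297 gave 73. The 5 most abundant sets held 51.8% of the counts, and 17 sets had fewer than 10 counts in all. The most abundant set, miR-467e-5p, held 14.4% and ranked 258 among all names by mean level. The sets traced only to the Sfmbt2 intron gave 1375 counts and those traced only to other loci gave 133. Another 124 counts came from 2 sets with an unplaced precursor, those of miR-466a-3p and miR-466c-5p, and 9 from sets traced to both.

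The summed level varied more within the high-fat group than between the diets. In control libraries 1 to 5 it was 81.9, 72.3, 76.0, 28.1 and 118 reads per 1000000 miRNA reads (RPM, library totals unscaled). In high-fat libraries 1 to 4 it was 196, 16.9, 101 and 174 RPM. High-fat libraries 1 and 4 stood above every control, library 3 lay within the control range, and library 2, the most deeply sequenced of the 9, was below every control. The top of that range was control library 5, where 46 of 99 counts came from sets traced only to loci outside Sfmbt2. The mean was 75.3 ± 32.1 RPM (SD, n = 5) in controls and 122 ± 81.0 (SD, n = 4) in high-fat libraries. Counting error alone was small beside these gaps, since the 95% Wilson interval ran from 0.00133% to 0.00215% of the counts in high-fat library 2 and from 0.0179% to 0.0215% in high-fat library 1. Such intervals cover counting error only. Without high-fat library 2 the high-fat mean was 157 RPM, and without high-fat library 1 it was 97.2. The sum was set by the choice of members and carries no test. In milk fat, a smaller contribution from cells that make these miRNAs and less of the miRNA per cell cannot be told apart.

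**Figure D1:**
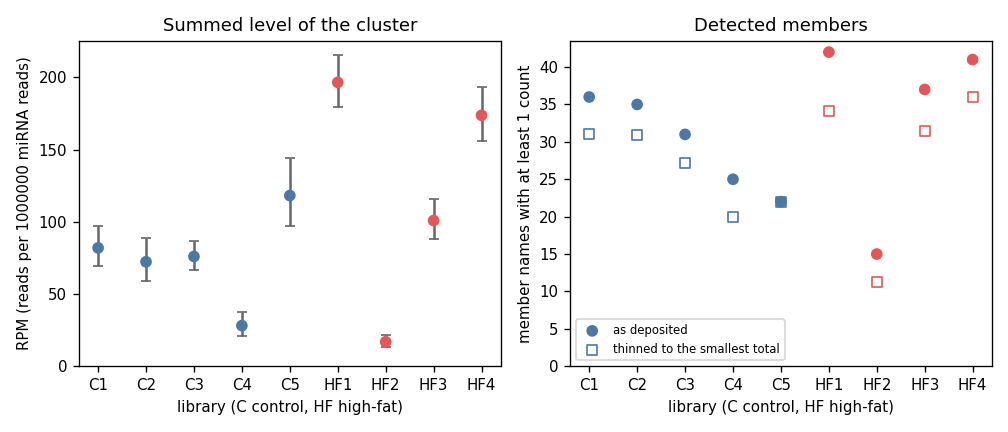
Left, the summed counts of the 4 families in RPM in each library (control C1 to C5 in blue, high-fat HF1 to HF4 in red), with 95% Wilson intervals for counting error. Right, the number of the 80 names with at least 1 count, as deposited (circles) and thinned to 837817 counts (squares). HF1 and HF4 are the highest on the left at 196 and 174 RPM, and HF2 is the lowest in both panels.

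The families were also summed one by one. The miR-467 family averaged 29.1 ± 10.2 RPM in controls and 53.9 ± 36.2 in high-fat libraries. The miR-669 family averaged 18.4 ± 8.45 and 35.1 ± 22.8 (SD, n = 5 and 4 throughout). The miR-466 family averaged 25.5 ± 24.6 and 26.8 ± 18.7, and miR-297 averaged 2.34 ± 1.03 and 6.15 ± 4.26. In each family the high-fat mean was the higher, and in each family high-fat library 2 was the lowest of the 9 libraries. Restricted to sets traced only to the Sfmbt2 intron, the level was 56.2 ± 17.7 RPM in controls and 105 ± 70.6 in high-fat libraries. On these sets high-fat libraries 1, 3 and 4 stood above every control (at most 70.7 RPM). High-fat library 2 stayed below every control, at 14.6 RPM against at least 25.6 RPM. Sets traced only to other loci ran the other way in their means, 14.2 ± 22.9 and 6.21 ± 4.15, and control library 5 alone held 54.9 RPM.

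The number of detected names was also highest in high-fat libraries 1 and 4 and lowest in library 2. It was 36, 35, 31, 25 and 22 in the controls, in library order, and 42, 15, 37 and 41 in the high-fat libraries. Thinned to the smallest total of 837817 counts, the means were 26.2 ± 5.06 names in controls and 28.2 ± 11.5 in high-fat libraries. High-fat library 2 kept 11.2 names after thinning, the fewest of the 9, and also had the fewest names over the whole table at that depth, 404 against 432 to 492 in the others.

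A test of diet could be made for 15 names in 7 sets. They passed a filter of 10 counts, scaled to the median library, in 4 or more libraries and a total of at least 15, as did 312 names of the whole table. Levels are given as counts per 1000000 (CPM) with library totals scaled by trimmed means of log ratios, and tests are limma-voom fits over all 312 names with Benjamini-Hochberg adjustment. No member was called at an adjusted p of 0.05, and none had an unadjusted p under 0.05. Over all 312 names 0 were called (0.0%), and 32 had an unadjusted p under 0.05 (10.3%). A fold change above 0, meaning higher in high-fat libraries on the log scale of the fit, was fitted for 4 of the 7 sets. Over all tested names it was fitted for 158 of 312 (50.6%). The mean CPM was higher in high-fat libraries for all 7 sets, including the 3 with a fold change below 0. That share is not given here for all names. The median log2 fold change was 0.58 over the 7 sets and 0.00 over all names tested. In none of the 7 were all high-fat libraries above or all below every control, which was so for 15 of 312 names (4.81%).

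Within the miR-467 family, miR-467e-5p had the most counts over the 9 libraries together, though in controls its mean level was below that of miR-467a-5p. Its counts, in library order here and for the sets that follow, were 17, 14, 17, 6 and 2 in controls and 76, 14, 31 and 60 in high-fat libraries. High-fat libraries 1, 3 and 4 stood above all controls in CPM, and library 2 lay inside the control range. The mean was 6.72 ± 3.85 CPM in controls and 20.5 ± 13.4 CPM in high-fat libraries, and the log2 fold change was 1.12 ± 0.84 (SE, adjusted p = 0.649 by limma-voom). Without high-fat library 2 it was 1.93 ± 0.48 (adjusted p = 0.181 by limma-voom), and without high-fat library 1 it was 0.72 (adjusted p = 0.700).

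miR-467a-5p and miR-467b-5p had identical counts and come from the repeated mir-467a hairpins and mir-467b. Their counts were 17, 12, 28, 8 and 9 in controls and 59, 0, 36 and 43 in high-fat libraries. The 3 high-fat libraries with reads stood above every control, while high-fat library 2 had none in its 3897109 counts, which allows a level of up to 0.770 RPM. The mean was 9.11 ± 2.27 CPM in controls and 16.2 ± 11.1 CPM in high-fat libraries. On the log scale of the fit that single 0 outweighed the other libraries, and the log2 fold change was -1.46 ± 1.52 (SE, adjusted p = 0.720 by limma-voom), opposite in sign to the difference of the means. Without high-fat library 2 it was 1.19 ± 0.33 (adjusted p = 0.181).

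The 3p products of mir-467a and mir-467d, miR-467a-3p and miR-467d-3p, shared 1 profile. Counts were 5, 4, 14, 1 and 10 in controls and 25, 0, 11 and 14 in high-fat libraries. In CPM no high-fat library exceeded control library 5, and high-fat library 2 was again at 0. The mean was 4.75 ± 4.29 CPM in controls and 5.75 ± 4.22 CPM in high-fat libraries, with a fitted log2 fold change of -0.97 ± 1.35 (SE, adjusted p = 0.811 by limma-voom).

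In the miR-669 family the most abundant set was miR-669a-3p with miR-669o-3p. Counts were 18, 10, 25, 0 and 6 in controls and 39, 16, 23 and 43 in high-fat libraries. High-fat libraries 1, 3 and 4 were above all controls in CPM, and control library 4 had no read. The mean was 6.94 ± 4.06 CPM in controls and 13.6 ± 7.95 CPM in high-fat libraries, and the log2 fold change was 1.10 ± 0.93 (SE, adjusted p = 0.683 by limma-voom). Without control library 4 it was 0.22, and without high-fat library 2 it was 1.65.

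The other tested miR-669 sets came from the 5p arm. miR-669c-5p had 5, 7, 9, 3 and 0 counts in controls and 44, 6, 11 and 23 in high-fat libraries. Only high-fat libraries 1 and 4 exceeded all controls. The mean was 2.75 ± 2.08 CPM in controls and 9.24 ± 7.03 CPM in high-fat libraries, with a log2 fold change of 1.20 ± 0.94 (SE, adjusted p = 0.649 by limma-voom). miR-669a-5p with miR-669p-5p had 12, 4, 17, 6 and 1 counts in controls and 21, 6, 10 and 14 in high-fat libraries. The groups overlapped widely, at 4.27 ± 2.30 CPM and 5.63 ± 3.03 CPM, and the log2 fold change was -0.06 ± 0.67 (SE, adjusted p = 0.957 by limma-voom).

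The miR-466 family was represented among the tested names by 1 set of 5 names, miR-466a-3p, miR-466b-3p, miR-466c-3p, miR-466e-3p and miR-466p-3p. Counts were 7, 9, 17, 4 and 0 in controls and 41, 5, 12 and 18 in high-fat libraries. High-fat libraries 1 and 4 exceeded all controls, library 3 lay inside their range, and control library 5 had no read. The mean was 4.02 ± 2.92 CPM in controls and 8.33 ± 6.26 CPM in high-fat libraries, and the log2 fold change was 0.58 ± 0.97 (SE, adjusted p = 0.835 by limma-voom). Without high-fat library 2 it was 1.58 ± 0.71, and without high-fat library 1 it was 0.06.

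**Figure D2:**
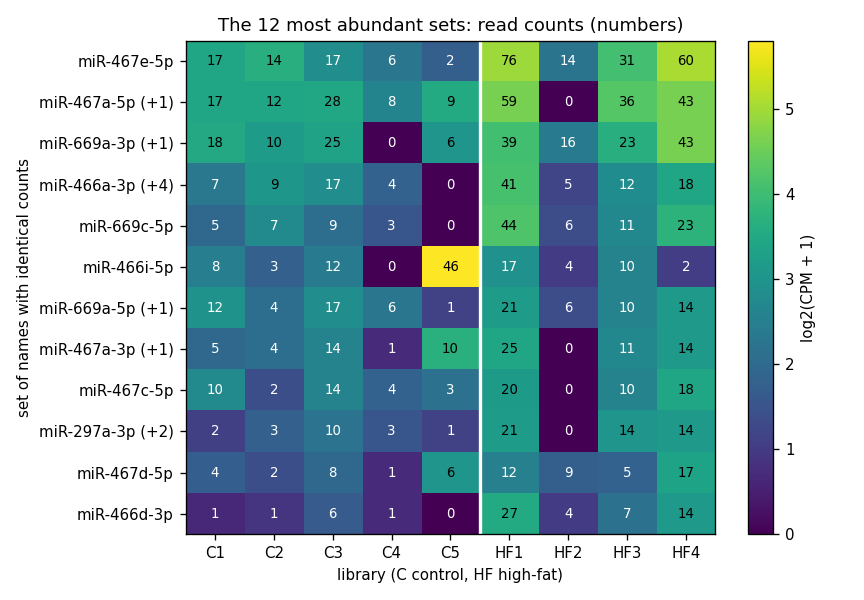
Read counts (numbers) and log2(CPM + 1) (colour) of the 12 most abundant sets in each library, with the count of further names in the set in brackets. High-fat library HF2 has 0 in miR-467a-5p, miR-467a-3p, miR-467c-5p and miR-297a-3p, and miR-466i-5p has 46 counts in control C5.

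Leaving out high-fat library 2 turned the sign of miR-467a-5p and miR-669a-5p. Only 5 of the sets (12 names) then passed the filter. Of these, 2 sets (3 names, miR-467e-5p, miR-467a-5p and miR-467b-5p) had an unadjusted p under 0.05, against 34 of 300 names over the whole table (11.3%), and no name was called after adjustment. In the full fit, 4 of the 312 tested names were at 0 in high-fat library 2, and all 4 were members, in 2 sets. Tested members were at low levels, and high-fat library 2 was the most deeply sequenced. The part of a low level in these zeros was not tested. The median of the mean levels was 5.93 CPM over the 7 sets and 64.1 CPM over all tested names. A wider search took every name with a mean of at least 5 CPM in the other libraries. Of the 321 such names, 9 were at 0 in high-fat library 2. Of these, 5 were members (3 sets) and 4 were not (miR-144-5p, miR-216b-5p, miR-217-5p and miR-709). Over all 40 sets, 31 were at 0 in that library, as were 14 of the 23 sets with 10 or more counts. Zeros among members also occurred in controls. Of the 10 tested names at 0 in control library 5, 6 were members (2 sets). Both of those at 0 in control library 4 were members (1 set). In the wider search, 6 of 14 names at 0 in control library 5 were members (2 sets), and 3 of 7 in control library 4 (2 sets).

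**Figure D3:**
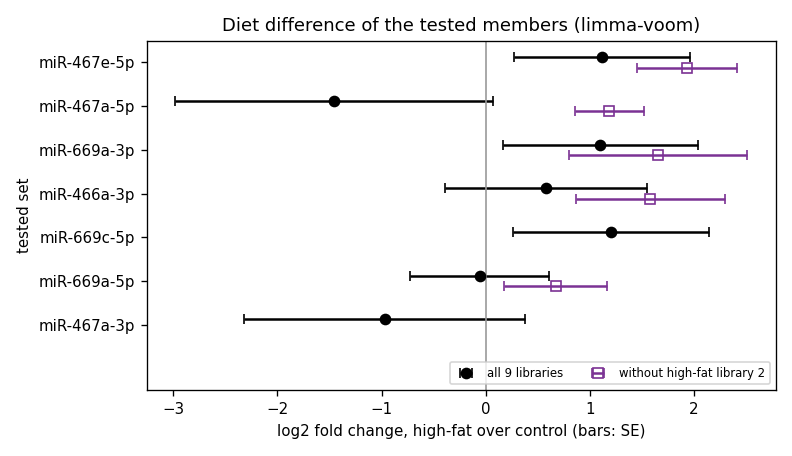
Log2 fold change of high-fat over control with its SE for each of the 7 tested sets (1 name shown per set), from all 9 libraries (filled circles) and without high-fat library 2 (open squares, for the 5 sets that still passed the filter). miR-467a-5p moves from -1.46 to 1.19, and miR-467e-5p from 1.12 to 1.93.

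Members too low to test held the remaining counts. The 10 with the most counts formed 8 sets, and for these only levels are given. The 3p products of mir-297a, mir-297b and mir-297c shared 1 profile, with 2, 3, 10, 3 and 1 counts in controls and 21, 0, 14 and 14 in high-fat libraries. High-fat libraries 1, 3 and 4 were above every control in CPM, and library 2 was below every control. miR-466d-3p had 1, 1, 6, 1 and 0 counts in controls and 27, 4, 7 and 14 in high-fat libraries, at 0.841 ± 0.806 CPM and 5.71 ± 4.25 CPM. It too was above every control in high-fat libraries 1, 3 and 4.

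The low miR-467 products repeated the order of libraries less fully. miR-467c-5p had 10, 2, 14, 4 and 3 counts in controls and 20, 0, 10 and 18 in high-fat libraries, with libraries 1 and 4 above every control in CPM. miR-467d-5p had 4, 2, 8, 1 and 6 counts in controls and 12, 9, 5 and 17 in high-fat libraries, and only library 4 was above every control. miR-669d-5p, with 20 counts in all, averaged 1.17 ± 0.846 CPM in controls and 0.887 ± 0.722 CPM in high-fat libraries, so that the means ran the other way.

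The mir-466i hairpin lies outside Sfmbt2, and its 5p product was highest in a control library. miR-466i-5p had 8, 3, 12, 0 and 46 counts in controls and 17, 4, 10 and 2 in high-fat libraries. Control library 5, the shallowest, held 54.7 CPM against 4.60 CPM or less in the other controls. miR-466i-3p, whose C and A repeat is printed above, had 18 counts in all and none in control library 5. miR-466f-3p was also highest there, with 2, 0, 11, 0 and 10 counts in controls and 7, 0, 5 and 8 in high-fat libraries, or 11.9 CPM in control library 5. That library also stood apart in 3 names that match B1 repeats (miR-3470a, miR-3470b and miR-1195), which summed to 670 CPM in it, to 69.5 to 130 CPM in the other controls and to 5.54 to 13.0 CPM in high-fat libraries. Their part in the miR-466i-5p level was not tested.

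Of the members with a printed sequence, miR-466q had 11 counts, 6 of them in high-fat library 1. miR-467f had 2 counts. miR-466j shared its profile with miR-466f, miR-466f-5p and miR-466m-5p, which trace to hairpins on chromosomes 2, 10 and 13, and this set had 3 counts in high-fat library 3, 5 in library 4 and none elsewhere. The remaining detected sets had at most 15 counts each.

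The arm that gave most of the reads was the 3p arm in miR-297 and miR-466 and the 5p arm in miR-467 and miR-669. The 3p arm gave 68 of 73 counts (93.2%) of miR-297, and 260 of the 378 counts with a named arm (68.8%) in miR-466. Of the 118 miR-466 counts on the 5p arm, 102 were miR-466i-5p, from outside Sfmbt2. In miR-467 the 3p arm gave 97 of 691 (14.0%) and in miR-669 195 of 469 (41.6%). The set of miR-466f, miR-466f-5p, miR-466j and miR-466m-5p (8 counts) was entered without an arm, although it holds 5p names. This also applies to the shares per library that follow, where its counts fell in high-fat libraries 3 and 4. Over all members, the 3p share was 36.6%, 37.1%, 45.4%, 20.5% and 30.3% in the controls and 37.9%, 37.9%, 38.4% and 41.2% in the high-fat libraries. In control library 5, miR-466i-5p gave 46 of the 69 counts on the 5p arm, which lowered the share there. The high-fat libraries thus lay within the control range, including library 2, where the level was lowest. The means were 34.0 ± 9.27% (SD, n = 5) and 38.8 ± 1.58% (SD, n = 4).

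**Figure D4:**
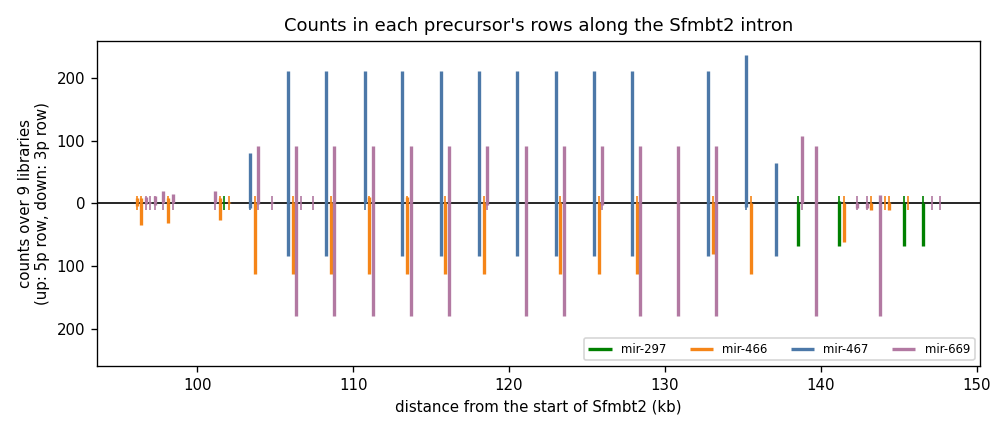
Counts over the 9 libraries in each precursor's rows, by distance in kb from the start of Sfmbt2, with the 5p row drawn upwards and the 3p row downwards, coloured by family (ticks mark each hairpin). Repeated bars of one height are rows that carry the same counts, such as 212 for miR-467a-5p and 180 for miR-669a-3p, so they are not separate measurements.

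The map along the intron shows how often the same reads were entered. Of the 20 members listed under several precursors, 17 were detected and 15 of these had equal counts in every row, the exceptions being miR-466b-3p and miR-466f-3p. The 212 counts of miR-467a-5p stood in 10 rows and would sum to 2120. The level of single hairpins of the repeated array was therefore not resolved.

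Single hairpins were compared by the ratio of their arms, as log2 of the 5p over the 3p count after adding 0.5 to both. Of 212 hairpins of the table with enough counts, 18 were from these families, several sharing an arm sequence. None of the 18 was called by limma on the ratios, against 1 of 212 (0.472%). An unadjusted p under 0.05 was found for 1 of the 18, against 18 of 212 (8.49%). That hairpin was mir-467e, whose log2 ratio was 2.32, 3.27, 5.13, 3.70 and 0.74 in controls and 5.67, 4.86, 5.98 and 6.92 in high-fat libraries. High-fat libraries 1, 3 and 4 were above all controls. The difference was 2.82 ± 0.81 (SE, adjusted p = 0.342 by limma), and it rested on 6 counts of miR-467e-3p against 237 of miR-467e-5p.

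The balance of the arms varied from hairpin to hairpin. mir-466a gave 113 counts of its 3p and 0 of its 5p product, and mir-297b 68 and 4. mir-467a-1 gave 212 counts of 5p against 84 of 3p, at log2 ratios of 1.30 ± 0.98 in controls and 1.12 ± 0.77 in high-fat libraries. In high-fat library 2 neither arm had a count, so its ratio of 0.0 came only from the value added to both. High-fat libraries 1, 3 and 4 were at 1.22, 1.67 and 1.58. mir-467d was nearer to balance, with 64 counts of 5p against 84 of 3p and log2 ratios of -0.52 ± 0.36 in controls and 0.61 ± 2.51 in high-fat libraries. The positive high-fat mean rested on library 2, at 4.25, where the 3p product had no count. High-fat libraries 1, 3 and 4 were at -1.03, -1.06 and 0.27. mir-669a-1 gave 180 counts of 3p against 91 of 5p, and its log2 ratio was negative in all 4 high-fat libraries and in 4 of 5 controls. In control library 4 it was 3.70, since the 3p product had no count there.

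**Figure D5:**
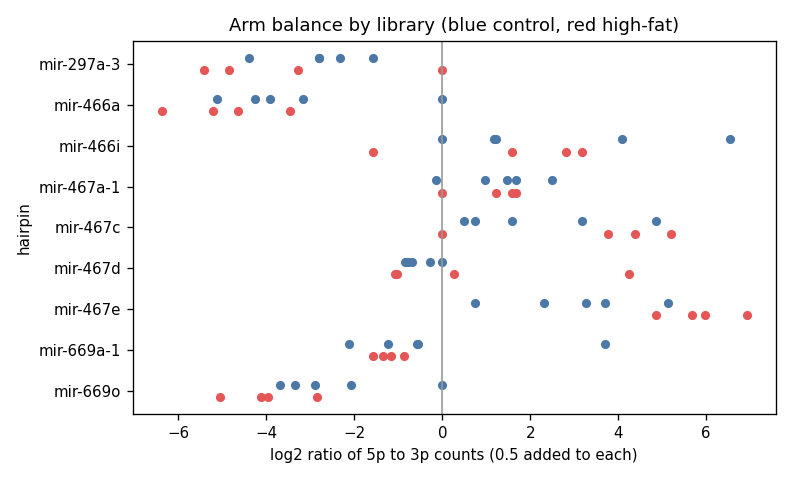
Arm ratio (log2 of 5p over 3p counts, each plus 0.5) in each library for 9 hairpins, controls in blue and high-fat libraries in red. mir-467e lies at 0.74 to 5.13 in controls and at 4.86 to 6.92 in high-fat libraries. Points at exactly 0 are libraries with equal counts on both arms, mostly no reads on either.

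Cell-type markers varied between the libraries in ways that only partly followed the cluster. All 10 names listed for secretory epithelium were detected and summed to 467216 to 549145 CPM. Their sum was lowest in high-fat library 1 and highest in high-fat library 2, the reverse of the cluster for these libraries. All 7 leukocyte names were detected. They summed to 603 to 1036 CPM in controls and to 11310, 292, 3611 and 588 CPM in high-fat libraries 1 to 4. A fold change above 0 was fitted for 6 of the 6 tested leukocyte names, against 158 of 312 names (50.6%). It was fitted for 4 of 10 epithelial, 3 of 3 erythrocyte, 2 of 3 stromal and 2 of 2 endothelial names. High-fat library 1 was highest and library 2 lowest in both the leukocyte names and the cluster. High-fat library 4, with 174 RPM of the cluster, had 588 CPM of leukocyte names, less than any control. The part of leukocytes in the cluster level was not tested. Muscle names were highest in high-fat library 3 at 100 CPM, with miR-206-3p at 0 in all libraries, and erythrocyte names were also highest there at 814 CPM. Stromal names summed to 10310 to 26617 CPM, highest in high-fat library 4, and endothelial names to 6.54 to 27.3 CPM.

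Other imprinted miRNAs were also sparse. Of 108 names listed for the Dlk1-Dio3 locus, another large imprinted miRNA cluster, 34 were detected and 0 passed the filter on low counts. Their sum was 11.1 ± 4.78 RPM in controls and 33.6 ± 17.6 in high-fat libraries. Of 6 names from H19, Igf2 and Mest, 2 were detected and 1 was tested, without a call. These summed to 3.03 ± 2.27 RPM in controls (at most 5.63) and 26.8 ± 39.1 RPM in high-fat libraries (6.67 to 85.5, median 7.56).

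A name outside the families, miR-574-5p, was also examined. It had the longest alternating U and G run among the 1623 names with a sequence, which leave out most members. Its mature form (chr5:64970328-64970350, +) is shown because its repeat resembles that of miR-466k and miR-466j.
miR-574-5p: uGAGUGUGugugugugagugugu
Its U and G run spans 13 bases. Its level was 48.9, 52.3, 48.6, 38.9 and 80.8 CPM in controls and 115, 101, 143 and 95.5 CPM in high-fat libraries. All 4 high-fat libraries were above every control, including library 2, the lowest for the cluster. The log2 fold change was 1.13 ± 0.22 (SE, adjusted p = 0.0996 by limma-voom), so it did not pass the threshold. Among tested names with a sequence, miR-32-3p and miR-672-5p also had a run of 8 or more. Their log2 fold changes were -0.00 ± 0.33 and -0.73 ± 0.29 (SE, adjusted p = 0.436 for miR-672-5p by limma-voom).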

How the data were processed

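Small RNA was sequenced from the milk fat of 9 dams. Per the labels' protocols, the fat layer was washed and spun to remove cells, RNA was extracted with a column kit (miRNeasy), and libraries were made with a NEXTflex small RNA kit and run on a HiSeq2500. The submitters' processing notes name cutadapt 1.9.1 and the build GRCm38. For the aligner, the counter and the miRBase release nothing is given in the sources used here. Read counts were deposited, made by the authors per precursor and mature name, with commas in 833 cells, which were stripped. Counts were taken as reads, not molecules.

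In each library the highest of a name's rows was kept, and names with identical counts in all 9 libraries entered sums once. Because of the commas the columns were not treated as plain counts for count models, and limma-voom (limma 3.58.1, R 4.3.3) was used, with library totals scaled by trimmed means of log ratios (30% of ratios and 5% of levels trimmed). Arm ratios were fitted with limma over 212 hairpins with at least 10 counts over both arms in at least 4 libraries. Both scripts were tested on simulated data. Dams are the replicates, and diet was the only term. Replicate numbers only name the dams. Sums over members have no test. Library totals were 837817 to 3897109 counts, and a count of 0 was read as up to 3 counts.

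Named were all members passing the filter, the 10 highest that did not, members and other names with a listed sequence feature, and hairpins chosen after their values were seen. The members, lists and tests were chosen with earlier results of these data known. Alternatives were other scalings, filters, fits and row rules, and leaving out each library.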

Additional observations from a re-analysis of the deposited data

Results flagged for a closer look

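In 5 of 36 groups of 4 or 5 libraries searched, 1 library stood far from the rest of its diet group. For normally spread values chance would flag about 1 in 20 such groups, or 1.80 here. Some of these values rest on few counts, so 1.80 is only a rough guide and the number flagged carries no test. miR-466i-5p was at 54.7 CPM in control library 5, against 0 to 4.60 CPM in the other controls. miR-467a-5p was at 5.10 CPM in control library 4, against 9.79 to 10.7 CPM. miR-297a-3p was at 0 CPM (0.0) in high-fat library 2, against 7.08 to 8.27 CPM in the other high-fat libraries. miR-669d-5p was at 1.97 CPM in high-fat library 1, against 0.506 to 0.543 CPM, which are 5 counts against 1 or 2. The 3p share of the cluster was 41.2% in high-fat library 4, against 37.9% to 38.4%, a gap inside its Wilson interval of 35.9% to 46.6%.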

How the results depend on the processing

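No member was called under any of the 17 alternatives for the diet fit or the 12 for the arm ratios. The number of member names tested ran from 10 to 17, apart from 55 with no filter and 7 with identical names merged. The replicate numbers do not pair the dams (correlations of same-numbered libraries were 0.062, -0.076, 0.197 and -0.159), and a fit with the replicate block called 0 members. The fitted direction was seen to change for 2 sets. miR-467a-5p was at 0.34 with the replicate block, and ran from -2.26 to 1.19 when single libraries were left out. miR-669a-5p was at 0.033 with no filter, 0.17 with limma-trend and 0.065 with rows summed, and ran from -0.26 to 0.67 when single libraries were left out, at 0.00 without control library 4. The other 5 tested sets kept their sign wherever they were fitted. Some leave-outs gave no value for a set that then missed the filter. Neither miR-467a-3p, which had no count in high-fat library 2, nor miR-669c-5p was fitted without that library. Whether their sign rests on it is therefore not shown. The level in RPM depended on how repeated entries were counted. With rows summed it was 280 in controls and 461 in high-fat libraries, and with identical names entered separately 121 and 213. Leaving out single libraries gave 64.6 to 87.1 and 97.2 to 157. The 3p share was 47.6% and 54.0% with identical names entered separately, and 49.8% in high-fat libraries with rows summed. At 3 or more counts, 19 names were detected in controls. Depth limits all of this: most members have a few reads per library. With 5 and 4 dams, p-values rest on the spread between these dams, and housing pairs cannot be told apart from dams.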
